A study of Mus musculus with 15 samples.

Results

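Genes of 3 groups of liver oxidoreductases were followed: the flavin-containing monooxygenases Fmo1, Fmo2, Fmo4 and Fmo5, the aldehyde oxidases Aox1 and Aox3, and Por, the NADPH-cytochrome P450 reductase. The 7 genes were chosen by name as members of these families, and not by a threshold on their values. Earlier results of these data were known when the genes were chosen. All 7 passed the filter on low counts, out of 13967 genes tested and 25731 genes in the tables.

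Liver RNA was sequenced from C57BL/6 mice, an inbred laboratory strain, with 5 libraries per diet. The KD libraries come from mice given a ketogenic diet, very low in carbohydrate, for 3 days at 12 weeks of age, and the HFD libraries from mice given a high-fat diet for 3 days at 12 weeks of age. The CD libraries come from mice fed chow for the same 3 days, and their age is absent from the labels. Sex, food intake, diet composition, time of day and batch are absent as well, and each library was taken as 1 mouse. Nothing in the labels says that the libraries come from separate mice, so that p-values measure the spread between these samples, which may be technical.

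Flavin-containing monooxygenases are microsomal enzymes that use FAD, NADPH and oxygen to oxidise nitrogen and sulfur atoms of drugs, amines and thioethers. Aldehyde oxidases are cytosolic enzymes with a molybdenum cofactor, FAD and iron-sulfur clusters, and they oxidise aldehydes and nitrogen-containing aromatic rings. Por is a membrane flavoprotein of the endoplasmic reticulum that passes electrons from NADPH to the microsomal cytochrome P450 enzymes, on which much of the drug, steroid and fatty acid oxidation of the liver depends.

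Estimated read sums ran from 34707597 to 50914494 in KD, from 30121672 to 44764257 in HFD and from 30190806 to 43688344 in CD libraries. Levels of a gene across libraries are given as CPM, reads scaled to a common library size by TMM factors, and differences between diets as log2 fold changes from edgeR's quasi-likelihood test. A gene is said to have risen or fallen where its Benjamini-Hochberg adjusted p over all genes tested was under 0.05. Levels between genes are compared as TPM, which divides by transcript length. The summed CPM of 6 hepatocyte markers ran from 80168 to 90443 in KD, from 68876 to 81376 in HFD and from 73571 to 88929 in CD libraries, while 6 lung and kidney markers summed to at most 0.0795, 0.625 and 0.118 CPM on the same diets, with Sftpc at 0 in every library. Most of the hepatocyte sum was Alb, at 48560 to 70883 CPM. Ttr (log2 -0.45) and Serpina1c (-0.53) fell in KD against CD. With HFD, Alb (-0.26) and Ttr (-0.36) fell and Cps1 (0.52) rose against CD, and in KD against HFD Alb (0.32) rose and Serpina1c (-0.73) and Cps1 (-0.76) fell. The part of these changes in the values of the 7 genes was not tested.

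In KD against CD, Por, Fmo5, Fmo1 and Fmo2 rose and Aox1 fell, so that 5 of the 7 genes were called, where 30.8% of all genes tested were (16.2% higher and 14.6% lower). With HFD, Fmo5, Por and Fmo2 rose and Aox1 and Fmo4 fell against CD, again 5 of 7, where 15.6% of all genes were called (8.3% higher and 7.32% lower). In KD against HFD, Por, Fmo5, Fmo1 and Fmo2 rose and Aox1 and Aox3 fell, 6 of 7, where 26.1% of all genes were called (13.1% higher and 13% lower). The median log2 fold change of the 7 genes was 0.73 in KD against CD, 0.27 in HFD against CD and 0.41 in KD against HFD, beside -0.01, 0.01 and -0.02 for all genes tested in the same order. The libraries of the diets did not overlap for 5 of the 7 genes in KD against CD (22.3% of all genes), for 2 in HFD against CD (10.3%) and for 4 in KD against HFD (17%). The 3 comparisons share libraries pairwise, so their counts are not separate evidence. Since the 7 genes were chosen with earlier results of these data known, their counts beside the shares of all genes are description only. With library totals alone in place of TMM, 68.5% of the genes called in KD against CD were higher, against 52.6% with TMM, and 70.6% against 50.1% in KD against HFD. That scaling moved the median of all genes by less than 0.1 and turned the direction of none of the 7 genes.

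**Figure D1:**
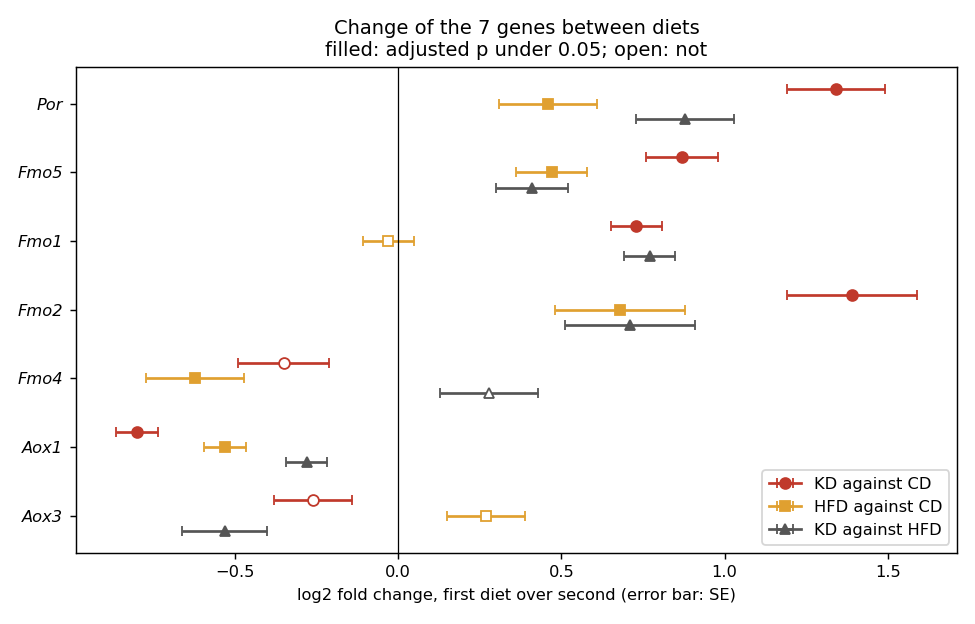
Log2 fold change of the 7 genes in the 3 comparisons, with standard errors as bars and filled symbols for adjusted p under 0.05. Por and Fmo2 have the rises of largest size in KD against CD (1.34 and 1.39), Aox1 lies left of 0 in all 3 comparisons, and Fmo1 lies at -0.03 in HFD against CD.

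Among the 7 genes, the mean TPM over 15 libraries was highest for Fmo5 at 478, followed by Aox3 at 208, Fmo1 at 178, Por at 154, Aox1 at 31.6, Fmo2 at 6.27 and Fmo4 at 3.36. The ranges over libraries of Aox3 (138 to 290 TPM), Fmo1 (100 to 308 TPM) and Por (43.7 to 312 TPM) overlapped, so that their order is not fixed by these data. Fmo5 ranked 182 of 25731 genes by mean TPM, and Fmo4 ranked 8010. The 2 aldehyde oxidases and 3 of the 4 monooxygenases lie in clusters on chromosome 1. Fmo4 and Fmo1 are 15.6 kb apart, Fmo1 and Fmo2 are 7.71 kb apart, and Aox1 and Aox3 are 6.72 kb apart.

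Reads of related genes could be split between them, so the overlap of sequence was counted. Of all words of 30 bases in the most abundant transcript of each gene, the share also found in a transcript of any other gene was 0% for Fmo1, Fmo4, Aox1 and Por, 0.0991% for Fmo2, 0.544% for Fmo5 and 0.677% for Aox3. None of the genes that shared the most words with these transcripts was another of the 7. Por overlaps the annotated genes Gm43091 and Gm16061 on the opposite strand, and Aox3 overlaps the small nucleolar RNA gene Gm24548, and none of these has a value in the tables used here. The sources used here do not say whether the libraries keep strand.

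**Figure D2:**
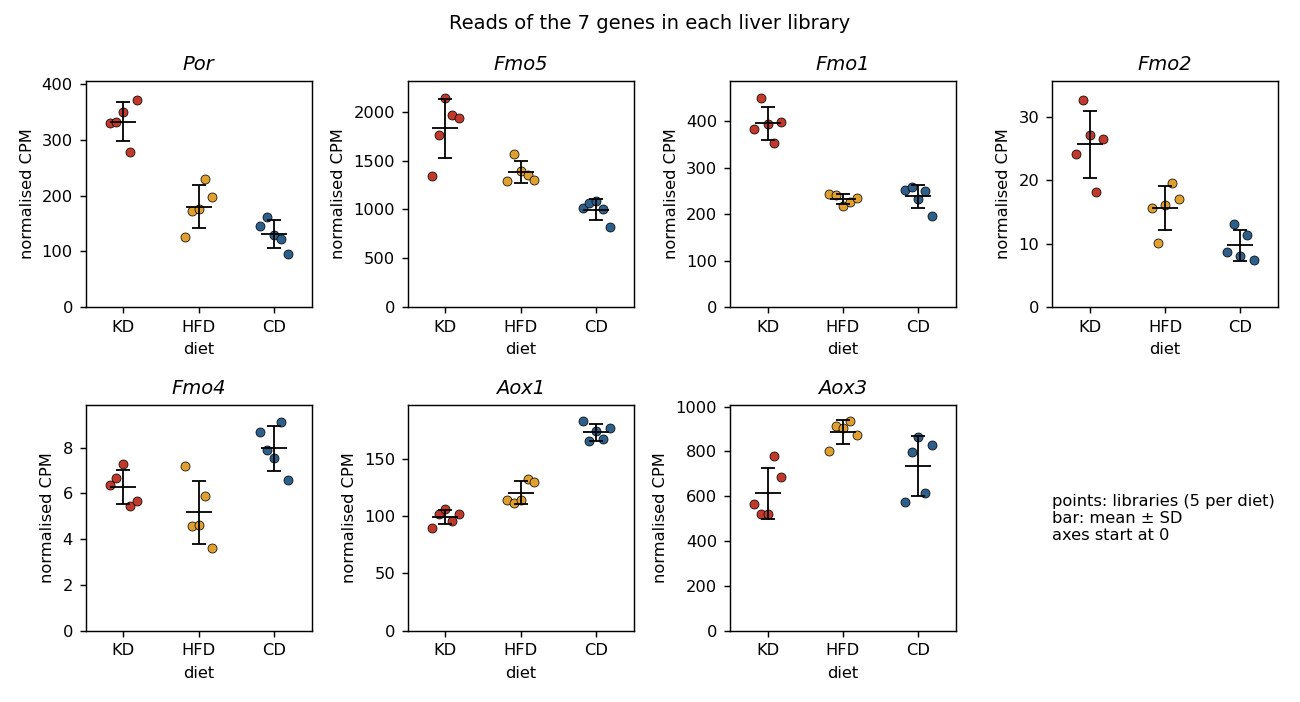
Normalised CPM of the 7 genes in each liver library, with KD, HFD and CD from left to right, bars for the mean ± SD of 5 libraries and every axis starting at 0. KD libraries of Por, Fmo1, Fmo5 and Fmo2 lie above every CD library, and all CD libraries of Aox1 lie above every library of the other diets.

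Por (ENSMUSG00000005514.14, chr5:135670033-135735326, plus strand, GRCm38) had 331, 332, 350, 278 and 373 CPM in the 5 KD livers, 126, 173, 177, 230 and 197 CPM in the HFD livers, and 146, 161, 130, 122 and 96.2 CPM in the CD livers. Every KD library stood above every HFD and CD library, while HFD and CD libraries overlapped. Por averaged 333 ± 34.9 CPM in KD, 181 ± 38.1 in HFD and 131 ± 24.7 in CD (SD, n = 5 each). It rose 2.54-fold in KD against CD (log2 fold change 1.34 ± 0.15 SE, adjusted p = 8.68e-06) and 1.84-fold in KD against HFD (0.88 ± 0.15, adjusted p = 0.000605). Against CD, the rise in HFD was 1.38-fold (0.46 ± 0.15, adjusted p = 0.0488), just inside the threshold. That last call was lost when any 1 library other than KD 6, HFD 9 or CD 16 was left out (adjusted p 0.0558 to 0.123 in the 12 cases). It was also lost under 5 of the 7 other settings. In bulk liver RNA, a change in the number of cells that make a transcript and a change in its amount per cell cannot be told apart, for this gene or for those that follow.

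The stretch just before the start of Por-201, which lies inside the annotated gene since Por-208 and Por-209 start upstream, is shown because Por carries the rise of largest size among the abundant genes. It comes from RefSeq on GRCm38.p6 (chr5:135688895-135689035, plus strand) and ends at the base before the start of Por-201. Capitals mark matches, on either strand, to the GC box GGGCGG.
Por: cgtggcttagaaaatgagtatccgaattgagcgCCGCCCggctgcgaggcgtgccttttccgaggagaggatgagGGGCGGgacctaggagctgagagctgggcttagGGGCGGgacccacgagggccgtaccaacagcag
The 250 bases before the RefSeq start of Por held 4 such matches, 217, 175, 142 and 48 bases before it, of which the first 3 lie in the printed stretch. No match was found to the CCAAT box, to the TATA box TATAAA, to the nuclear receptor half-site AGGTCA or to the E-box CACGTG. Over all 32851 RefSeq windows of the same length, 32.7% held the GC box, 33.8% the CCAAT box, 12.4% the TATA box, 14% the half-site and 6.02% the E-box, and such a match is a description of letters only.

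The make-up of Por transcripts differed with the ketogenic diet. Por-201, the full-length coding transcript, held 82.6, 78.6, 83.9, 86.9 and 84.3% of Por reads in KD, 91.0, 90.5, 88.6, 91.9 and 88.1% in HFD, and 88.4, 87.9, 89.1, 89.2 and 93.4% in CD libraries. All 5 KD shares lay below every HFD and CD share, while HFD and CD shares overlapped. The KD mean differed from CD by -6.35 percentage points (exact permutation test over samples, two-sided, p = 0.00794, the smallest that 5 against 5 can give, adjusted p = 0.031) and from HFD by -6.80 points (exact permutation p = 0.00794, adjusted p = 0.031). HFD and CD differed by 0.457 points (exact permutation, adjusted p = 0.774). These p-values were adjusted over 39 tests, for 13 shares and ratios in 3 comparisons, of which 19 were under 0.05. Leaving out CD 15, 16, 18 or 19 moved the adjusted p of KD against CD to between 0.0516 and 0.0563. In each of these cases the KD shares still lay below every CD share left. With fewer libraries the exact test has fewer arrangements. A call lost in this way, here or for the shares below, need not mark dependence on that library.

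Beside Por-201, the short retained-intron transcript Por-206 took 10.9 ± 0.814% of Por reads in KD, 8.14 ± 1.16% in HFD and 8.02 ± 1.72% in CD (SD, n = 5 each, no test). Coding transcripts that start upstream also took reads. Por-208, annotated to start 19 kb before Por-201, was given 624, 579, 18, 98 and 351 estimated reads in KD libraries and 0, 0, 0, 13 and 63 in HFD libraries, and 0 in every CD library. A count of 0 allows up to 3 reads there, which is at most 0.106% of the Por reads of a CD library. Por-209, which starts 14.5 kb before Por-201, was given 91 to 352 estimated reads in KD, 15 to 64 in HFD and 5 to 25 in CD. Reads were divided among transcripts that share exons by estimation, so these values depend on that step, and Por-208 varied widely within KD, where Por itself did not.

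**Figure D3:**
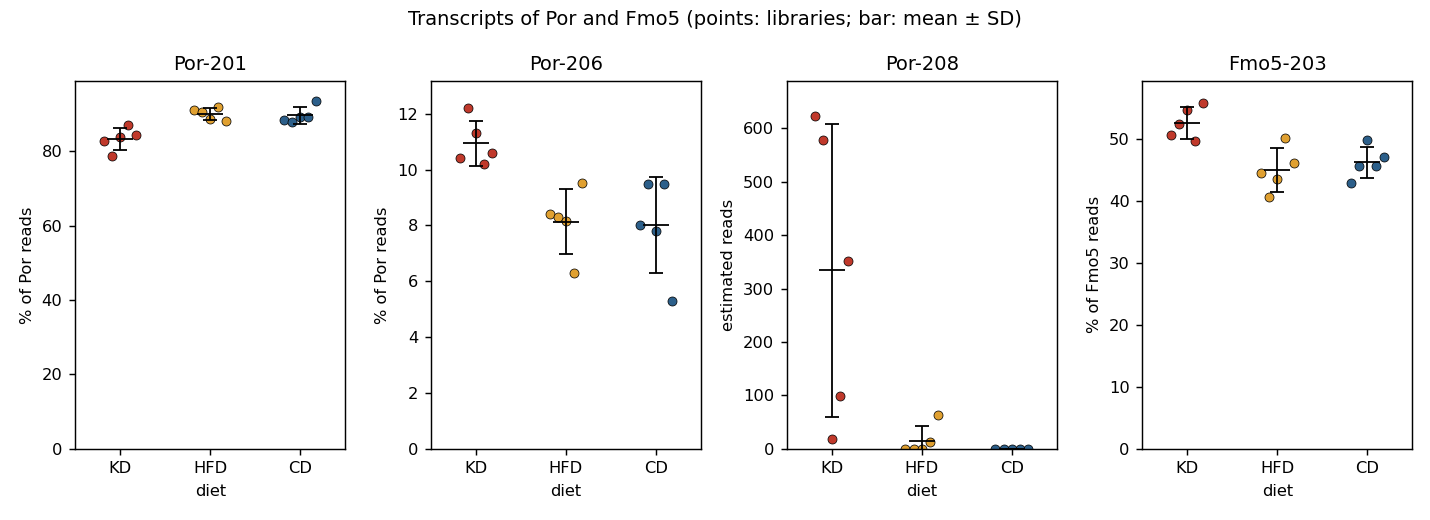
Share of Por reads in Por-201 and Por-206, estimated reads of Por-208, and share of Fmo5 reads in Fmo5-203, by library and diet, with bars for the mean ± SD. The 5 KD libraries lie below all others for Por-201 (78.6 to 86.9%), and Por-208 is at 0 in all CD libraries and in 3 HFD libraries.

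Por was also set against the genes it serves, the microsomal P450 genes. They were taken by symbol, as protein-coding genes named Cyp and a digit, with mitochondrial P450 genes left out. The 94 microsomal P450 genes in the tables summed to 22772 ± 3396 TPM in KD, 12635 ± 1874 TPM in HFD and 13858 ± 1998 TPM in CD (SD, n = 5 each). Cyp2e1 alone averaged 5599 TPM over the 15 libraries, and Cyp3a11 1331 TPM, so a few genes made up a large part of the sum. Por came to 12.7, 13.3, 15.2, 10.5 and 10.2 TPM per 1000 TPM of the 94 genes in KD, to 5.64, 7.37, 7.86, 9.83 and 10.3 in HFD, and to 5.82, 6.75, 5.15, 5.49 and 4.17 in CD libraries. KD ratios lay above every CD ratio, HFD ratios reached into both other diets, and the highest HFD ratio lay just above the lowest KD ratio. The mean ratio was 6.91 higher in KD than in CD (exact permutation p = 0.00794, adjusted p = 0.031), 2.73 higher in HFD than in CD (exact permutation, adjusted p = 0.0489) and 4.18 higher in KD than in HFD (exact permutation, adjusted p = 0.0413). The call in HFD against CD was lost without any 1 of HFD 10, 11, 12 or 14 or any 1 CD library (adjusted p 0.0546 to 0.0929). That in KD against HFD was lost without any 1 of KD 2, 3, 4 or 8 or HFD 9, 10, 11 or 12 (0.0516 to 0.0815) and in CPM in place of TPM (a difference of 2.09, adjusted p = 0.168). The effective length of Por, by which TPM divides, was 1464 to 1695 bases in KD, 1786 to 2072 in HFD and 1790 to 2233 in CD. Por averaged 280, 106 and 77.2 TPM in KD, HFD and CD, against 333, 181 and 131 CPM. The part of this length in the ratio was not tested.

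The P450 genes moved in both directions, and 70 of the 94 were tested. In KD against CD, 22 rose and 21 fell, where 16.2% of all genes rose and 14.6% fell. In HFD against CD 8 rose and 15 fell (8.3% and 7.32% of all genes), and in KD against HFD 23 rose and 18 fell (13.1% and 13%). Of the 3 with the highest mean TPM, Cyp2e1, which oxidises ethanol and other small molecules, rose 2.08-fold in KD against CD (log2 1.06 ± 0.089, adjusted p = 8.8e-08). Cyp2d9, a steroid hydroxylase, fell by 0.38 ± 0.1 on the log2 scale (adjusted p = 0.00823). Cyp3a11, a drug- and steroid-oxidising enzyme, averaged 3809 ± 4769 CPM in KD, 623 ± 179 CPM in HFD and 3401 ± 756 CPM in CD (SD, n = 5 each), so its spread among KD livers was larger than its mean. In KD it had 37825 to 504104 reads per library, against 17621 to 28728 in HFD and 72792 to 155632 in CD. The lowest KD library thus lay below every CD library in reads, and the KD mean does not describe each KD liver. The log2 difference of Cyp3a11 was 0.16 in KD against CD (adjusted p = 0.864). Cyp3a11 fell by 2.45 ± 0.61 on that scale in HFD against CD (adjusted p = 0.0187) and rose by 2.61 ± 0.62 in KD against HFD (adjusted p = 0.00853).

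**Figure D4:**
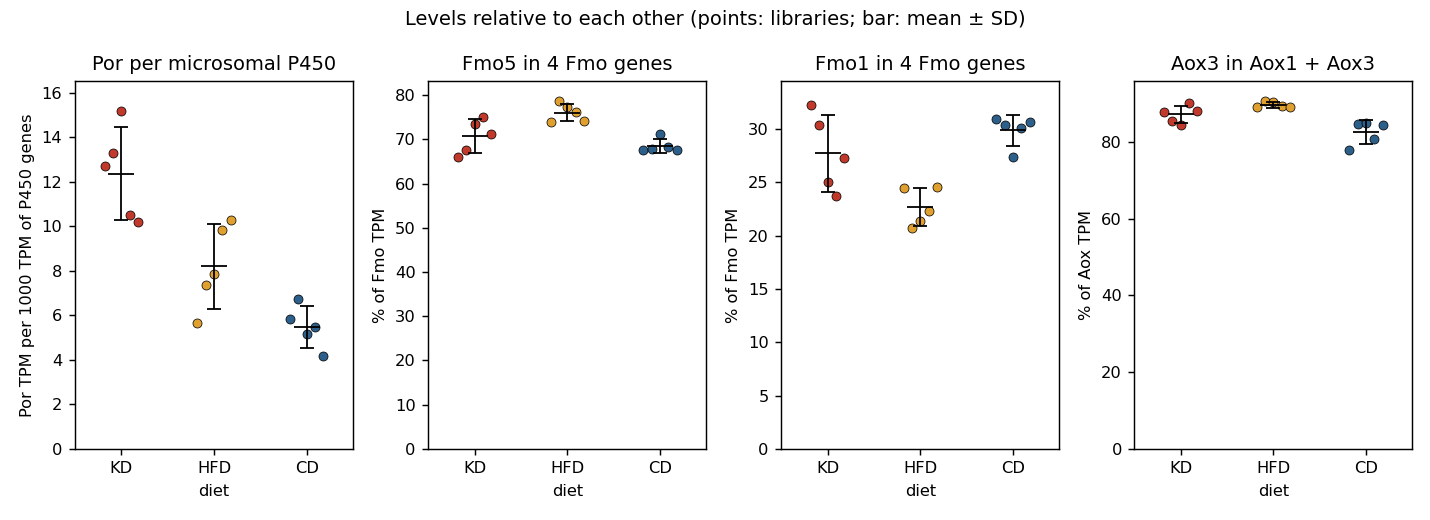
Por TPM per 1000 TPM of the 94 microsomal P450 genes, the shares of Fmo5 and Fmo1 in the TPM of the 4 Fmo genes, and the share of Aox3 in the TPM of Aox1 plus Aox3, by library, with bars for the mean ± SD. The Por ratio is 10.2 to 15.2 in KD and 4.17 to 6.75 in CD, and HFD libraries stand apart from CD in both Fmo shares and in the Aox3 share.

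Fmo5 (ENSMUSG00000028088.14, chr3:97628804-97655282, plus strand), a family member that in human studies acts as a Baeyer-Villiger oxygenase of ketones, had 1346, 1762, 2140, 1969 and 1940 CPM in KD, 1288, 1570, 1392, 1349 and 1306 CPM in HFD, and 1016, 1071, 1085, 1001 and 824 CPM in CD livers. All KD and all HFD libraries stood above every CD library, and the lowest KD library lay within the HFD range. Fmo5 averaged 1831 ± 303 CPM in KD, 1381 ± 113 in HFD and 999 ± 104 in CD (SD, n = 5 each). It rose 1.83-fold in KD against CD (log2 0.87 ± 0.11, adjusted p = 7.1e-06), 1.38-fold in HFD against CD (0.47 ± 0.11, adjusted p = 0.00693) and 1.33-fold in KD against HFD (0.41 ± 0.11, adjusted p = 0.00928).

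Fmo5 reads were divided mainly between Fmo5-203, of 5197 bases, and Fmo5-201, of 2453 bases. Both hold 1599 coding bases, and Fmo5-203 ends 2.73 kb beyond Fmo5-201. The share of Fmo5-203 was 50.6, 52.4, 54.7, 49.7 and 55.8% in KD, 44.5, 40.6, 43.6, 50.2 and 46.2% in HFD, and 42.9, 45.7, 49.8, 45.7 and 47.2% in CD. KD shares lay highest, with an overlap of less than 1 percentage point with the highest library of each other diet. The mean was 6.36 points higher in KD than in CD (exact permutation, adjusted p = 0.0413) and 7.62 points higher in KD than in HFD (exact permutation, adjusted p = 0.0413), and HFD and CD differed by -1.26 points (exact permutation, adjusted p = 0.592). Leaving out any 1 of KD 2, 3, 4 or 8 or CD 15, 16, 18 or 19 ended the call in KD against CD (adjusted p 0.0516 to 0.0619), and any 1 of KD 2, 3, 4 or 8 or HFD 10 that in KD against HFD (0.0516 to 0.058).

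Fmo1 (ENSMUSG00000040181.14, chr1:162829561-162866610, minus strand), a drug-oxidising family member expressed in mouse liver, had 383, 451, 394, 353 and 398 CPM in KD, 243, 242, 217, 227 and 236 CPM in HFD, and 253, 258, 233, 250 and 197 CPM in CD livers. Every KD library stood above all 10 others, and HFD and CD libraries were intermixed. The means were 396 ± 35.5, 233 ± 10.9 and 238 ± 25.0 CPM in KD, HFD and CD (SD, n = 5 each). Fmo1 rose 1.66-fold in KD against CD (log2 0.73 ± 0.078, adjusted p = 1.37e-06) and 1.70-fold in KD against HFD (0.77 ± 0.078, adjusted p = 1.77e-06). Between HFD and CD its log2 difference was -0.03 ± 0.078 (adjusted p = 0.832, approximate 95% interval -0.18 to 0.12). That interval was taken from the SE by a normal approximation and not from the test itself.

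The principal coding transcript Fmo1-201 held 89.3 ± 1.17% of Fmo1 reads in KD, 87.9 ± 1.53% in HFD and 86.1 ± 1.39% in CD (SD, n = 5 each). The 3.17-point difference of KD from CD passed the test (exact permutation, adjusted p = 0.0413), though not without any 1 of KD 2, 3 or 8 or CD 15, 16, 18 or 19 (0.0546 to 0.0728).

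Fmo2 (ENSMUSG00000040170.13, chr1:162874317-162898726, minus strand), in many mammals the main form of the lung, had 24.1, 32.7, 27.1, 18.1 and 26.6 CPM in KD, 15.6, 10.1, 16.1, 19.6 and 17.0 CPM in HFD, and 8.73, 13.1, 8.03, 11.4 and 7.43 CPM in CD livers. KD and CD libraries were apart, and HFD libraries lay between them and overlapped both. Fmo2 averaged 25.7 ± 5.30 CPM in KD, 15.7 ± 3.51 in HFD and 9.74 ± 2.42 in CD (SD, n = 5 each). It rose 2.63-fold in KD against CD (log2 1.39 ± 0.2, adjusted p = 0.000139), 1.60-fold in HFD against CD (0.68 ± 0.2, adjusted p = 0.0367) and 1.64-fold in KD against HFD (0.71 ± 0.2, adjusted p = 0.0168). The rise in HFD against CD was lost without any 1 of HFD 11, 12 or 14 or CD 15, 17 or 19 (adjusted p 0.0709 to 0.0909), and under 3 of the 7 other settings.

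The lung form was looked at beside markers of other cells. The summed CPM of 11 stellate cell and fibroblast markers ran from 251 to 313 in KD, from 214 to 274 in HFD and from 225 to 315 in CD livers. In KD against CD, 3 of them rose (Dcn, Lum and Hgf) and none fell, where 16.2% of all genes rose and 14.6% fell. With HFD, none rose and Lum fell against CD (8.3% and 7.32% of all genes). The same 3 rose in KD against HFD, by 0.39 (Dcn), 1.03 (Lum) and 0.80 (Hgf) on the log2 scale, and none fell (13.1% and 13% of all genes). The part of these cells in the values of Fmo2 was not tested. Fmo2 reads fell mainly on the coding Fmo2-201 and the retained-intron transcript Fmo2-206. Fmo2-201 took 38.8 to 63.6% in KD, 44.2 to 66.6% in HFD and 17.6 to 66.0% in CD libraries, so that its share varied most among CD livers, and no comparison passed the test (exact permutation, adjusted p 0.513, 0.287 and 0.423 in KD against CD, HFD against CD and KD against HFD). In the same gene cluster as Fmo1 and Fmo4, the 250 bases before a RefSeq start of Fmo2 (GRCm38.p6, chr1:162898759-162899008, minus strand) held none of the 5 motifs searched. The window before its other RefSeq start, at base 162898493, held 1 match to AGGTCA, 9 bases before that start, and none to the other 4. The first window is printed whole as the one without a match.
Fmo2: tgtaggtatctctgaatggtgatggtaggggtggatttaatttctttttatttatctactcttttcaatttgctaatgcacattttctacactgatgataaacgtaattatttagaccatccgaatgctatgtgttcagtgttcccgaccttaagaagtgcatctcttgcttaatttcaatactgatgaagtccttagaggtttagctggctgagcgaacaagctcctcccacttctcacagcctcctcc

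Fmo4 (ENSMUSG00000026692.12, chr1:162793188-162813972, minus strand), a form with few known substrates, was the least abundant of the 7, with 119 to 342 reads per library. It had 6.38, 6.69, 7.28, 5.44 and 5.66 CPM in KD, 7.19, 4.57, 4.64, 5.89 and 3.60 CPM in HFD, and 8.70, 7.89, 7.54, 9.13 and 6.61 CPM in CD livers. The CD libraries lay highest, with overlap with both other diets. Fmo4 averaged 6.29 ± 0.752 CPM in KD, 5.18 ± 1.39 in HFD and 7.98 ± 0.989 in CD (SD, n = 5 each). It fell in HFD against CD, to 0.649 of the CD level (log2 -0.62 ± 0.15, adjusted p = 0.00834). Its log2 difference was -0.35 ± 0.14 in KD against CD (adjusted p = 0.0787) and 0.28 ± 0.15 in KD against HFD (adjusted p = 0.177). The difference of KD from CD passed the test when HFD 9 or HFD 14 was left out (adjusted p = 0.0372 and 0.0446) or with only those diets fitted (0.0213), and that of KD from HFD passed without HFD 9 (0.43, adjusted p = 0.0235).

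Fmo5 held the larger part of the summed TPM of the 4 Fmo genes in every library. Its share was 66.0, 67.7, 73.5, 75.1 and 71.3% in KD, 74.0, 78.6, 77.3, 76.1 and 74.2% in HFD, and 67.5, 67.9, 71.2, 68.3 and 67.7% in CD livers. HFD shares all lay above the CD shares, and KD shares spanned the CD range. The Fmo5 share was 7.51 percentage points higher in HFD than in CD, and the Fmo1 share differed by -7.22 points, at 22.7 ± 1.78% against 29.9 ± 1.46% (SD, n = 5, exact permutation, adjusted p = 0.031 for both). Neither share passed the test in KD against CD, at 2.18 points for Fmo5 and -2.16 points for Fmo1 (exact permutation, adjusted p = 0.363 and 0.332). In KD against HFD the differences were -5.33 and 5.05 points (exact permutation, adjusted p = 0.0563 for each), under the threshold for both at 0.0221 without KD 6.

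Of the minor forms, Fmo2 lay above Fmo4 in KD and HFD and below it in CD by their mean shares. Fmo4 took 0.318 to 0.541% of the family in KD and 0.293 to 0.586% in HFD, against 0.789 to 0.874% in CD, with no overlap with CD for either diet (differences of -0.411 and -0.385 points, exact permutation, adjusted p = 0.031 for both). In TPM, the unit of these shares, Fmo4 itself averaged 3.89 in KD, 2.46 in HFD and 3.75 in CD. Fmo5 averaged 684, 437 and 314 TPM on the same diets. The lower Fmo4 share in KD thus came without a lower Fmo4 TPM. Fmo2 took 1.11 ± 0.226% in KD, 0.812 ± 0.232% in HFD and 0.720 ± 0.0980% in CD (SD, n = 5 each). Its share was 0.394 points higher in KD than in CD (exact permutation, adjusted p = 0.0413), a call lost without any 1 of KD 2, 3 or 8 or any 1 CD library (0.0516 to 0.0619) and in CPM (0.0688).

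Aox1 (ENSMUSG00000063558.4, chr1:58029931-58106413, plus strand) and its neighbour Aox3 are the aldehyde oxidases of mouse liver. Aox1 had 89.7, 102, 106, 96.1 and 102 CPM in KD, 114, 111, 114, 132 and 130 CPM in HFD, and 183, 165, 174, 167 and 177 CPM in CD livers. In CPM the diets formed 3 separate ranges, lowest in KD, with HFD between, and highest in CD. In TPM, Aox1 ran from 25.8 to 32.1 in KD, from 20.4 to 35.9 in HFD and from 34.5 to 40.6 in CD. There the HFD range overlapped both others. Aox1 averaged 99.2 ± 6.44 CPM in KD, 120 ± 9.91 in HFD and 173 ± 7.26 in CD (SD, n = 5 each). It fell to 0.573 of the CD level in KD (log2 -0.80 ± 0.064, adjusted p = 4.65e-08) and to 0.694 of it in HFD (-0.53 ± 0.064, adjusted p = 4.07e-05). KD lay at 0.825 of HFD (-0.28 ± 0.064, adjusted p = 0.00381), and this last call was lost with library totals in place of TMM (-0.22, adjusted p = 0.0611, and 0.00038 to 0.0611 over all settings). By p, Aox1 ranked 46 of 13967 genes in KD against CD and 41 in HFD against CD.

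Aox3 (ENSMUSG00000064294.12, chr1:58113130-58200698, plus strand) had 565, 522, 520, 778 and 685 CPM in KD, 801, 914, 905, 936 and 875 CPM in HFD, and 574, 799, 864, 613 and 830 CPM in CD livers. All HFD libraries stood above all KD libraries, and CD libraries overlapped both. Aox3 averaged 614 ± 114 CPM in KD, 886 ± 52.4 in HFD and 736 ± 133 in CD (SD, n = 5 each). It fell to 0.693 of the HFD level in KD (log2 -0.53 ± 0.13, adjusted p = 0.00505). Against CD, the log2 difference was -0.26 ± 0.12 in KD (adjusted p = 0.126) and 0.27 ± 0.12 in HFD (adjusted p = 0.155). The difference of KD from CD passed without KD 6 (-0.36, adjusted p = 0.0288) or without CD 15 (-0.34, adjusted p = 0.0446), with a range of 0.0288 to 0.277 over all settings.

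Aox1 passed the test in HFD against CD and Aox3 did not, so the difference itself was tested through their ratio in each library. Aox3 made up 87.9, 85.6, 84.4, 90.1 and 88.1% of the TPM of both genes in KD, 89.2, 90.7, 90.4, 89.4 and 89.0% in HFD, and 78.0, 84.6, 85.0, 80.7 and 84.4% in CD. HFD shares stood above every CD share, and KD and CD shares met at their edges. The mean was 7.16 percentage points higher in HFD than in CD (exact permutation, adjusted p = 0.031), 4.68 higher in KD than in CD (exact permutation, adjusted p = 0.0489) and -2.49 in KD against HFD (exact permutation, adjusted p = 0.0563). Leaving out any 1 KD or CD library other than KD 4 ended the call in KD against CD (adjusted p 0.0546 to 0.116), while leaving out KD 6 brought KD against HFD under the threshold (-3.19, adjusted p = 0.0221).

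The stretches before these neighbours are shown because the genes, 6.72 kb apart on the same strand, differed in their response to HFD. Both come from RefSeq on GRCm38.p6, at chr1:58029719-58029930 for Aox1 and chr1:58112886-58113129 for Aox3, on the plus strand. Capitals mark matches to GGGCGG or CCAAT on either strand.
Aox1: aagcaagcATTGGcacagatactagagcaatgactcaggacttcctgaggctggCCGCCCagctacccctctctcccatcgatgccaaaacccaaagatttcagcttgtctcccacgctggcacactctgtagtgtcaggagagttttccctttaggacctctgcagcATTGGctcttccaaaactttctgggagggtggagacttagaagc
Aox3: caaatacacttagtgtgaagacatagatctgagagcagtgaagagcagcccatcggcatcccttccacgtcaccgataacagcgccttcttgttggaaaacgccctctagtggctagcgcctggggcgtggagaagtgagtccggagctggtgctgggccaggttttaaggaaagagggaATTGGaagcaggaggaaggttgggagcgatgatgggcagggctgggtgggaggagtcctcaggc
Aox1 had 2 CCAAT matches, 242 and 82 bases before the RefSeq start, and 2 GGGCGG matches, 196 and 27 bases before it, the last of which lies beyond the printed stretch. Aox3 had 1 CCAAT match, 70 bases before the start, and no GGGCGG match. RefSeq windows were matched for 6 of the 7 genes, all but Fmo1.

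Both aldehyde oxidase messages were mostly full-length coding transcripts. Aox1-201 held 92.7 ± 1.56% of Aox1 reads in KD, 90.4 ± 0.953% in HFD and 89.6 ± 1.80% in CD (SD, n = 5 each), and the rest fell on the retained-intron transcript Aox1-202. Its 3.12-point difference between KD and CD (exact permutation, adjusted p = 0.0489) was lost without any 1 KD or CD library (0.0546 to 0.0977) and in TPM (0.058). Aox3-201 held 98.5 ± 0.340% in KD, 97.7 ± 0.227% in HFD and 98.0 ± 0.0645% in CD. The HFD mean was 0.294 points below CD and the KD mean 0.788 points above HFD (exact permutation, adjusted p = 0.031 for both). The KD mean was 0.494 points above CD (exact permutation, adjusted p = 0.0489), and in TPM the sign of this difference turned (-0.128, adjusted p = 0.92). The call in KD against CD was also lost without any 1 of KD 3, KD 4 and KD 8 or any 1 CD library (adjusted p 0.0546 to 0.0807), that in HFD against CD without any 1 CD library (0.0546 to 0.0619), and that in KD against HFD in TPM (3.64 points, adjusted p = 0.058).

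The cofactors of these enzymes were read through lists of genes. Of 9 tested genes for other molybdenum enzymes and for synthesis of the molybdenum cofactor, Gphn, Xdh and Marc2 rose in KD against CD and Mocos and Marc1 fell. All genes tested gave 30.8% called in KD against CD, 15.6% in HFD against CD and 26.1% in KD against HFD. Gphn, which inserts molybdenum into the cofactor, rose 1.35-fold (log2 0.44 ± 0.059, adjusted p = 1.87e-05), and Mocos, the sulfurase that activates aldehyde oxidases and xanthine dehydrogenase, fell by 0.30 ± 0.065 on the log2 scale (adjusted p = 0.00176). Marc1, a molybdenum reductase of the outer mitochondrial membrane, fell by 0.22 ± 0.058 (adjusted p = 0.0063). With HFD only Gphn passed against CD, with a rise of 1.27-fold (0.35 ± 0.059, adjusted p = 0.00078), and in KD against HFD only Mocos, with a fall of 0.20 ± 0.065 on the log2 scale (adjusted p = 0.0331). The other aldehyde oxidase genes Aox2 and Aox4 had 33 and 6 reads over the 15 libraries and were untested.

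Of 4 tested genes of flavin supply, 3 rose and none fell in KD against CD, where 16.2% of all genes rose and 14.6% fell. The same counts held in KD against HFD (13.1% and 13% of all genes), while none passed in HFD against CD (15.6% of all genes called). Slc52a3, of the same list, had 128 reads over the 15 libraries and was untested. Slc25a32, a mitochondrial carrier of folate and FAD, rose 1.88-fold in KD against CD (log2 0.91 ± 0.11, adjusted p = 8.6e-06). Rfk, the riboflavin kinase, rose 1.20-fold (0.26 ± 0.056, adjusted p = 0.00183), and Slc52a2, a riboflavin transporter, 1.22-fold (0.29 ± 0.099, adjusted p = 0.0307).

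Of 8 tested genes of NADPH supply, the malic enzyme Me1 and the pentose phosphate enzymes G6pdx and Pgd fell and the NAD kinase Nadk rose in KD against CD. Me1 fell to 0.221 of the CD level (log2 -2.18 ± 0.17, adjusted p = 2.99e-07), Pgd to 0.489 of it (-1.03 ± 0.11, adjusted p = 1.62e-06) and G6pdx to 0.195 of it (-2.36 ± 0.28, adjusted p = 2.1e-05). With HFD the same 3 and Idh1 fell against CD and none rose, and in KD against HFD Nadk and Idh1 rose and none fell. Among all genes tested, 16.2% rose and 14.6% fell in KD against CD. The shares were 8.3% and 7.32% in HFD against CD, and 13.1% and 13% in KD against HFD.

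Electron carriers of the cytochrome b5 group, the progesterone receptor membrane components, and Ndor1 and Mtrr were counted beside Por. Of 9 tested, Cyb5a alone rose in KD against CD (16.2% of all genes rose), and 4 fell, Cyb5b, Cyb5r3, Cyb5r1 and Pgrmc2 (14.6% of all genes fell). Cyb5a, microsomal cytochrome b5, rose 1.35-fold (log2 0.43 ± 0.099, adjusted p = 0.00265). Cyb5r3, the main cytochrome b5 reductase, fell by 0.94 ± 0.11 on the log2 scale (adjusted p = 4.56e-06), Cyb5b, the cytochrome b5 of the outer mitochondrial membrane, by 0.75 ± 0.076 (adjusted p = 7.21e-07) and Cyb5r1 by 0.74 ± 0.12 (adjusted p = 0.000167). In HFD against CD 4 fell (Cyb5b, Pgrmc2, Pgrmc1 and Cyb5r1) and none rose, where 7.32% of all genes fell and 8.3% rose. In KD against HFD Cyb5a rose and Cyb5r3 and Cyb5r1 fell, where 13.1% of all genes rose and 13% fell.

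Of 4 tested genes for other enzymes that take electrons from Por, the haem oxygenase Hmox2 alone rose, 1.18-fold in KD against CD (log2 0.24 ± 0.064, adjusted p = 0.00836) and 1.17-fold in KD against HFD (0.23 ± 0.064, adjusted p = 0.0125), and none passed in HFD against CD. Mitochondrial P450 genes and their carriers receive electrons without Por. Among the 4 tested, Cyp27a1, a sterol hydroxylase, fell by 0.45 ± 0.082 on the log2 scale in KD against CD (adjusted p = 0.000394), and none passed in HFD against CD. In KD against HFD, Cyp27a1 and Fdxr fell. Beside both lists, 16.2% of all genes rose and 14.6% fell in KD against CD, and 13.1% rose and 13% fell in KD against HFD. In HFD against CD 15.6% of all genes were called.

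Receptors that act on genes of drug metabolism were counted as well. Of 11 tested, 5 rose in KD against CD (Ppara, Rxra, Nr1i3, Nr1i2 and Ahr) and none fell, where 16.2% of all genes rose and 14.6% fell. Ppara and Rxra rose and Pparg fell in HFD against CD (8.3% and 7.32% of all genes). In KD against HFD 5 rose (Ppara, Nr1i2, Ahr, Rxra and Pparg) and none fell (13.1% and 13% of all genes). Ppara, a fatty acid receptor, rose 2.73-fold in KD against CD (log2 1.45 ± 0.12, adjusted p = 1.7e-07) and 1.59-fold in HFD against CD (0.67 ± 0.12, adjusted p = 0.0015). Rxra, its partner, rose 1.38-fold in KD against CD (0.46 ± 0.068, adjusted p = 4.69e-05), and Nr1i3, the constitutive androstane receptor, 1.59-fold (0.67 ± 0.13, adjusted p = 0.000908).

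Among 19 other oxidoreductases and hydrolases of small molecules, 5 rose (Aldh3a2, Maob, Cbr4, Ephx2 and Aldh1a1) and 3 fell (Ephx1, Nqo2 and Akr7a5) in KD against CD. None rose and 5 fell in HFD against CD (Ephx1, Cbr1, Adh1, Maoa and Akr1c13), and 11 rose and Akr7a5 and Nqo2 fell in KD against HFD. All genes tested gave 16.2% higher and 14.6% lower in KD against CD. Their shares were 8.3% and 7.32% in HFD against CD, and 13.1% and 13% in KD against HFD. Aldh3a2, the fatty aldehyde dehydrogenase, rose 2.36-fold in KD against CD (log2 1.24 ± 0.11, adjusted p = 1.3e-07), while HFD against CD was at -0.13 ± 0.11 (adjusted p = 0.439). Maob, a monoamine oxidase, rose 1.44-fold (0.52 ± 0.084, adjusted p = 0.000112). Ephx1, the microsomal epoxide hydrolase, fell to 0.506 of the CD level in KD (-0.98 ± 0.11, adjusted p = 4.5e-06) and to 0.490 of it in HFD (-1.03 ± 0.11, adjusted p = 2.49e-05).

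Clock genes and the PAR leucine zipper factors, which act on Por and other drug-metabolising genes in mouse liver, also differed between diets. Of 15 tested, 8 rose and Arntl and Npas2 fell in KD against CD, where 16.2% of all genes rose and 14.6% fell. In HFD against CD 7 rose and none fell (8.3% and 7.32% of all genes). In KD against HFD Hlf, Ciart and Nr1d2 rose and Arntl fell (13.1% and 13% of all genes). Hlf, a PAR factor, rose 1.60-fold in KD against CD (log2 0.68 ± 0.083, adjusted p = 6.46e-06), Nr1d2, a clock repressor, 2.31-fold (1.21 ± 0.15, adjusted p = 2.5e-05) and Ciart 6.98-fold (2.80 ± 0.34, adjusted p = 2.04e-05). Ciart was low, at 0.830 CPM in CD, with 20 to 40 reads per library, and 5.84 CPM in KD, with 89 to 327. The part of the clock genes, and of the time at which livers were taken, in the values of Por and the other genes was not tested.

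Markers of liver zones moved with the diets as well. The summed CPM of 9 pericentral hepatocyte markers ran from 13014 to 14983 in KD, from 8896 to 10024 in HFD and from 6760 to 8392 in CD livers, without overlap. Cyp2e1 alone averaged 10848 CPM in KD, 6938 in HFD and 5220 in CD, and so made up most of each sum. Of the 9 markers, 6 rose in KD against CD, 4 in HFD against CD (Oat, Slc1a2, Lect2 and Cyp2e1) and 5 in KD against HFD (Glul, Oat, Lect2, Rhbg and Cyp2e1), and none fell. Rgn, Axin2 and Lgr5 passed in no comparison. Periportal markers, 8 in number, summed to 3703 to 5997 CPM in KD, 5382 to 6709 in HFD and 3280 to 5863 in CD, and Pck1 and Hsd17b13 rose and 5 fell in KD against CD (Hal, Cdh1, Sdsl, Cyp2f2 and Ass1). Sdsl and Ass1 rose in HFD against CD and none fell, and in KD against HFD Hsd17b13 rose and Hal, Sdsl, Cyp2f2 and Ass1 fell. The 5 erythroid markers, which report blood in the tissue, summed to 338 to 555 CPM in KD, 399 to 1167 in HFD and 735 to 1076 in CD, and all 5 fell in KD against CD. The 7 B and T cell markers summed to 1.88 to 2.48 CPM in KD, 2.33 to 3.48 in HFD and 2.69 to 3.39 in CD. Of these, Cd79a, Ms4a1 and Cd3d fell in KD against CD, Ms4a1 and Cd3d fell in KD against HFD, and none passed in HFD against CD. Beside these counts, 16.2% of all genes rose and 14.6% fell in KD against CD. The same shares were 8.3% and 7.32% in HFD against CD, and 13.1% and 13% in KD against HFD. The part of zonation, of blood content and of B and T cells in the values of the 7 genes was not tested.

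Genes whose pattern over the 15 libraries lay nearest to each of the 7 were named by the root mean square difference in log2 CPM centred on each gene's mean, among 8861 genes. Nearest to Fmo1 were Hadha and Acad11 at 0.092 and 0.100, where Fmo1 itself had an SD of 0.370. Fmo2 had Oat, one of the pericentral markers above, and Fitm2 at 0.217 and 0.261, and Por had Fitm2 and Vwa8 at 0.188 and 0.200. Fmo5 lay nearest to Crybg1 and Ivns1abp at 0.134 and 0.143, and Fmo4 to Acsl5 and Dixdc1 at 0.125 and 0.155. The genes nearest to Aox1 were Ugdh and Enpep at 0.111 and 0.112, and those nearest to Aox3 were Vmn2r114 and Wdr91 at 0.141 and 0.153. Hadha, the alpha subunit of the mitochondrial trifunctional protein of fatty acid oxidation, averaged 526, 309 and 312 CPM in KD, HFD and CD. Ugdh, which makes UDP-glucuronate, averaged 150, 176 and 255 CPM on the same diets, with Aox1 at 99.2, 120 and 173 CPM.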

How the data were processed

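Liver RNA of 15 libraries was analysed from the deposited transcript tables, which hold estimated counts and TPM per the file headers. Per the submitters' processing notes, Trimmomatic 0.36, kallisto 0.44, edgeR 3.28 and build GRCm38.p6 were used, with no settings. Library kit, strand, read length and batch are not stated. Label numbers run in blocks by diet, so that a batch that followed the diets cannot be told apart from them.

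Estimated counts were summed per gene with GENCODE M21 (105734 of 106332 transcripts matched to 25731 genes) and rounded. The 598 unmatched transcripts, with 0.184 to 0.223% of reads, were left out. The filter filterByExpr (at least 10 reads in enough libraries, 15 in all) kept 13967 genes. A single model of the 15 libraries was fitted in edgeR 4.0.16 (R 4.3.3), scaled by TMM and with robust quasi-likelihood estimation, which leaves 12 residual degrees of freedom. Benjamini-Hochberg adjustment ran over all genes tested, with a threshold of 0.05. The common biological coefficient of variation was 0.1306. Transcript shares used the deposited estimated counts. Ratios between genes used the deposited TPM, which rests on effective lengths that differ between libraries, and were compared by exact two-sided permutation tests over samples. DESeq2 1.42.0 gave an alternative scaling and an alternative test, and tables and plots were made with pandas 2.3.3 and matplotlib 3.10.9 under Python 3.11.15. The code was tested on simulated data.

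All 7 genes are reported. A list of further family genes is not reported here. Genes of the lists are the 3 with the smallest adjusted p in KD against CD. Those named for a count of 5 or fewer, and the genes behind such counts, were chosen after their values were seen. The P450 genes are the 3 with the highest mean TPM, and the genes of like pattern the 2 nearest to each. The 7 genes and all lists were chosen with earlier results of these data known. The overlap of 30-base words and the effective length offsets were added after values were seen. Libraries of 1 diet differed beyond sampling noise in all 30 pairs (chi-square per degree of freedom 18.5 to 113.4), and none were identical. The limit on a count of 0 (3 reads) covers counting error only.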

Additional observations from a re-analysis of the deposited data

Results flagged for a closer look

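In 60 groups of 5 libraries, covering the levels and shares of the 7 genes in each diet, 5 had a library far from the other 4 by Dixon's test at the 95% level, where chance gives about 1 in 20, or 3 of 60. Fmo5 made up 71.2% of the Fmo TPM in CD 17, against 67.5 to 68.3% in the other CD livers, and in the same library Fmo1 made up 27.4%, against 30.1 to 31.0%. Since these shares sum to nearly the whole, both describe the same library. Por-201 held 93.4% of Por reads in CD 19, against 87.9 to 89.2% in the other CD livers, and CD 19 also had the lowest Por level of that diet, 96.2 CPM. Fmo2 made up 0.412% of the Fmo TPM in HFD 10, against 0.854 to 1.02% in the other HFD livers. Aox3-201 held 97.3% of Aox3 reads in HFD 14, against 97.7 to 97.9% in the other HFD livers.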

How the results depend on the processing

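Each of the 7 genes was refitted under 22 settings in 3 comparisons. Of 462 values, 429 kept their direction and their side of the threshold, 27 lost the call, 6 gained one, and none turned in direction. No paired analysis was possible because no replicate number recurs between diets. The counts of all genes called stayed within 1.5 times under every setting, at 3602 to 4441 in KD against CD, 1507 to 2754 in HFD against CD and 2862 to 3943 in KD against HFD over the libraries left out. The cause of the changes below was not tested. Effective length offsets were chosen after seeing the data.

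HFD against CD was the comparison that depended most on the settings. Por had log2 values of 0.48 with total counts only (adjusted p = 0.0887), 0.45 with DESeq2 size factors (0.0534), 0.45 without the filter (0.0898), 0.45 with only those diets (0.0964) and 0.43 with effective length offsets (0.12), and 0.36 to 0.56 with 1 library left out, with adjusted p from 0.0069 to 0.123 over all settings. Fmo2 had 0.70 with total counts only (0.0604), 0.67 without the filter (0.0691) and 0.47 with effective length offsets (0.12), and 0.59 to 0.82 with 1 library left out, with adjusted p from 0.00319 to 0.12. The number of the 7 genes called was thus 3 under total counts only, without the filter and with effective length offsets, and 3 to 5 with 1 library left out. In KD against CD, Fmo4 passed with only those diets fitted (-0.35, adjusted p = 0.0213) and ran from -0.40 to -0.29 with 1 library left out (adjusted p from 0.0213 to 0.18 over all settings). Aox3 ran from -0.36 to -0.20. In KD against HFD, Aox1 had -0.22 with total counts only (adjusted p = 0.0611), and Fmo4 ran from 0.17 to 0.43.

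With 1 library left out, 2 to 8 transcript shares and 4 to 8 Fmo shares passed. The Aox3 share of Aox1 plus Aox3 ran from 3.53 to 5.38 points in KD against CD and from -3.19 to -1.78 in KD against HFD. The Por ratio to P450 ran from 2.20 to 3.37 in HFD against CD and from 3.47 to 4.74 in KD against HFD, where it was 2.09 in CPM (adjusted p = 0.168). Differences that turned in sign were small or not called. They are the Aox3-201 share in KD against CD in TPM (-0.128), the Por-201 share in HFD against CD (-0.0148 to 1.41), the Fmo4 share of the family in KD against HFD (-0.0604 to 0.0130), and the Fmo4-202 share (-2.84 to 0.298 in KD against CD, -2.38 to 0.834 in KD against HFD, and -2.08 to 0.469 in HFD against CD). Depth is lowest for Fmo4, which rests on 119 to 342 reads per library.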
